A study of Mus musculus with 16 samples.

Results

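The respiratory chain and the ATP synthase of the inner mitochondrial membrane were followed through tenogenic induction and in tendon tissue. Members were chosen by gene symbol. The mt members are the 13 protein genes of the mitochondrial genome. Nuclear members have symbols that start with *Ndufa*, *Ndufb*, *Ndufc*, *Ndufs* or *Ndufv* and a number, with *Cox4* to *Cox8*, *Uqcr* or *Atp5*. Symbols with -ps, which mark pseudogenes, were left out. *Cox6c2*, *Ndufa11b*, *Ndufb4c* and *Ndufs6b* are annotated as processed pseudogenes but lack that mark, and were kept as members. This gave 97 genes of the 49206 in the deposited tables, 13 mt and 84 nuclear, of which 83 nuclear members are in the single-cell table and 84 in the tendon table.

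The single-cell samples are *ScxGFP* iPSC-derived cells from 1 iPSC clone that carries a GFP transgene under *Scx* regulatory sequence. Mesodermal cells were taken before TGF-β2 (T0) or after 3 days (T3), 6 days (T6) and 9 days (T9) in 10 ng/ml of it, and were sorted as live single cells, without selection for GFP, into 3 plates of 384 wells per time point. T0 cells were released with trypsin and later cells with collagenase and then trypsin, so that dissociation and time cannot be told apart. Achilles tendons came from littermates at 14 days of age, of which 2 were Scx_Wt and 2 were Scx-/- (Scx_KO), whose strain the labels do not name. Nothing in the sources used here says that the 3 plates of a time point came from separate cultures, so p-values between time points measure the spread between plates, which may be technical.

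Plates held between 1921125 and 4657093 UMIs (unique molecular identifiers, which count each captured mRNA once) in 4594 wells with at least 200 genes, and tendon samples between 11188270 and 12398560 read counts. The median well held 4575 to 11492 UMIs and 1212.5 to 3855 genes, and all 12 plates shared the same 384 well barcodes by design. The plates fall into 2 sets by the study's own mapping summary, 7 with more reads outside any annotated feature (all 3 T0 plates, T3 plate 2, T6 plates 1 and 3, T9 plate 3) and 5 with fewer (T3 plates 1 and 3, T6 plate 2, T9 plates 1 and 2). Since no T0 plate is in the second set, results against T0 are given also with this library split as a covariate. Among marker lists, 8 tenocyte genes summed to 797 to 800 CPM (counts per 1000000 counts of a library) at T0 and 14214 to 41169 CPM at T9. The 8 pluripotent genes went from 371 to 780 CPM to 0.332 to 296 CPM, 6 genes of dividing cells from 1705 to 1855 CPM to 438 to 796 CPM, and 7 genes known to respond to dissociation from 664 to 793 CPM to 1951 to 3065 CPM. Lists of other cell types moved as well: 10 genes of parietal endoderm from 996 to 1158 CPM to 6096 to 11188 CPM, 6 of epithelium from 394 to 509 CPM to 28.2 to 126 CPM, 6 of endothelium from 11.3 to 15.9 CPM to 46.6 to 99.8 CPM, 6 of adipocytes (only 3 of them detected at T9) from at most 0.926 CPM to 24.9 to 53.8 CPM, and 4 of cartilage from 14.4 to 16.3 CPM to 3.53 to 4.64 CPM. Their part in the results below was not tested. The parietal endoderm list holds the matrix genes *Sparc*, *Col4a1* and *Col4a2*. It also summed to 28407 and 28379 CPM in Scx_Wt tendon, so it does not mark that cell type alone.

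Electrons from NADH enter the chain at complex I, pass by ubiquinone to complex III and by cytochrome c to complex IV, where oxygen is reduced, and the proton gradient built on the way drives the ATP synthase (complex V). The mitochondrial genome encodes a small set of core subunits of complexes I, III, IV and V, and the nucleus encodes all others, among them accessory subunits with paralogs that tissues or low oxygen select. Tendon is a sparsely vascular tissue known for a low use of oxygen.

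Pieces of the mitochondrial genome sit in nuclear chromosomes, so that some mt members share sequence with other annotated genes. The pair that shows this most plainly is *mt-Co2*, the copper-bearing subunit 2 of complex IV, and its nuclear copy *Gm28661*. Their first 30 bases are given in the reading direction of each gene (GRCm38, *mt-Co2* at chrM:7013-7042 on the plus strand, *Gm28661* at chr1:24615536-24615565 on the minus strand), with the start codon in capitals.
mt-Co2: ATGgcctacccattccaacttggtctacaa
Gm28661: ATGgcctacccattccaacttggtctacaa
The genes are 684 and 681 bases long, and 100% of the 36-base windows of *mt-Co2*, the length of a single-cell read, occur in another annotated transcript. The same share was 99.9% for *mt-Co3* (with *Gm28437*), 99.5% for *mt-Atp6* (*Gm10925*), 98.9% for *mt-Nd4l* (*Gm10222*) and 98.1% for *mt-Nd3* (*Gm28438*). It was 62.6% for *mt-Nd4*, 59.7% for *mt-Co1*, 14.0% for *mt-Nd5*, 11.1% for *mt-Nd2*, 4.73% for *mt-Atp8*, 3.07% for *mt-Cytb*, 2.69% for *mt-Nd6* and 0 for *mt-Nd1*. The whole share of *mt-Atp8* was found in *mt-Atp6*, its overlapping neighbour on the mitochondrial genome.

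In the tendon table the 5 mt members with at least 98.1% of their windows shared had between 1 and 96 counts per sample, and the other 8 had between 5299 and 121513. In the single-cell table, made with another version of the same aligner, the same 5 genes held between 4062 and 476852 UMIs over the 12 plates and the other 8 between 9667 and 779404. Reads of these 5 genes and of their copies cannot be told apart by sequence, and *mt-Nd3* and *mt-Nd4l* were too low in tendon to be tested. The copies were themselves counted: *Gm28661* had 78, 115, 121 and 64 reads in the 4 tendon samples and 5106 UMIs over the plates, against 168466 UMIs of *mt-Co2*. *Gm10925* had more, with 137, 210, 149 and 121 reads and 72473 UMIs. *mt-Atp6* had 43, 46, 64 and 65 reads and 476852 UMIs. Of the 84 nuclear members, all with an annotated transcript, 23 shared no window with another gene and 2 shared at least 50%. These 2 were *Ndufb4c* (100%) and *Cox6c2* (58.2%), both processed pseudogenes and barely detected.

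**Figure D1:**
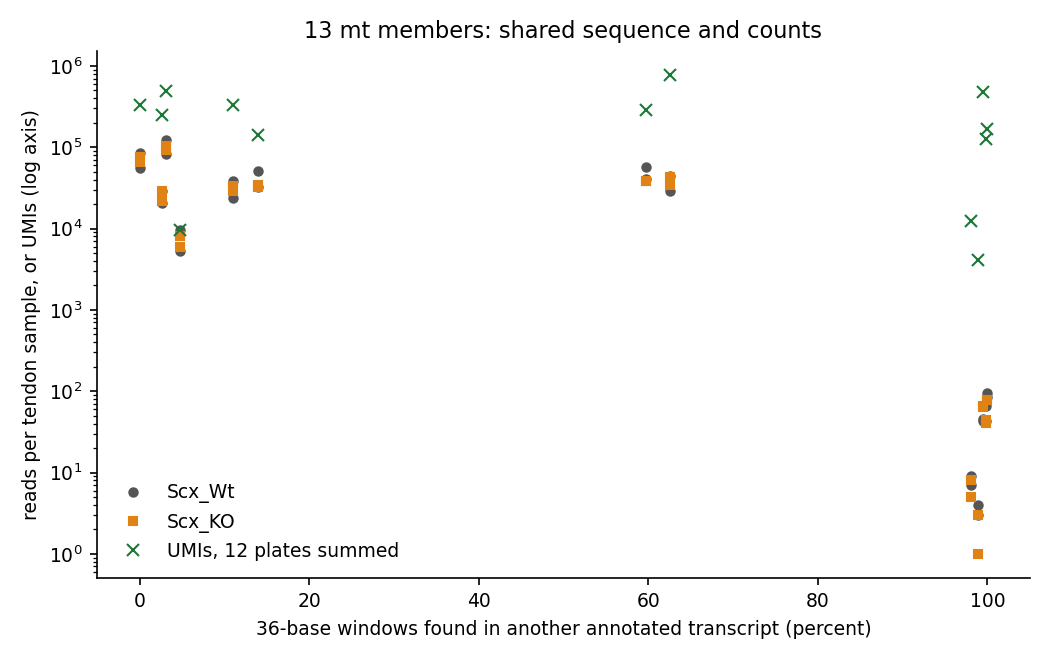
The 13 mt members by the percent of their 36-base windows found in another annotated transcript (x axis) and, on a log axis, the reads in each tendon sample (circles Scx_Wt, squares Scx_KO) and the UMIs summed over 12 plates (crosses). The 5 genes at 98.1% or more hold 1 to 96 reads per tendon sample, below the 5299 or more of the other 8, while their UMIs span 4062 to 476852.

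Nuclear members are known for promoters that share sites of NRF1 and of ETS-type factors. Promoters (300-base windows around annotated starts, RefSeq, GRCm38.p6) were matched by symbol for 63 of the 84 nuclear members, in 68 windows. The letters GCGCATG or their reverse complement CATGCGC, the core of an NRF1 site, occurred in 12 of the 63 genes (19.0%) and in 4.41% of all 27025 genes, and the 2 overlap in a palindrome. The windows of 4 of these are printed in the gene's direction because their changes with time are described below, with the matched letters in capitals.
Cox6a1 (chr5:115349104-115349130, minus): caggaacgggGCGCATGcgcgctctcg
Ndufa6 (chr15:82354357-82354383, minus): cgcggtagagCATGCGCattgcagagc
Cox5b (chr1:36691426-36691452, plus): aggcagaactGCGCATGtgcggcgtct
Uqcrc1 (chr9:108936668-108936694, plus): actccgctctGCGCATGcgcagcgcgg
The ETS-type letters CCGGAAG, searched with their reverse complement CTTCCGG, occurred in 14 of 63 genes (22.2%) and in 9.93% of all genes. Among these is *Atp5e*, whose change with time is given below.
Atp5e (chr2:174464187-174464213, minus): acggccacagCTTCCGGtagccgctcg
The core of a hypoxia response element, ACGTG with its reverse complement CACGT (the 2 overlap in CACGTG), occurred in 15 of 63 genes (23.8%) and in 21.8% of all genes. *Ndufv3*, also described below, is one of these.
Ndufv3 (chr17:31520116-31520140, plus): cgattggtgaACGTGgacgcggggc
These matches are letters in a window, not binding sites, and no test was run on them. The windows of *Ndufa4l2*, *Cox4i2*, *Cox6a2*, *Cox4i1*, *Ndufs1* and *Atp5a1* were not analysed here.

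The mt members together took shares of a plate's UMIs that overlapped between all time points. Their share of all UMIs was 7.97, 8.39 and 8.47% on the T0 plates, 9.68, 5.92 and 8.32% at T3, 6.57, 10.9 and 7.27% on T6 plates, and 9.91, 10.1 and 5.87% at T9. The means were 8.28% ± 0.267 at T0, 7.97% ± 1.90 at T3, 8.24% ± 2.32 on T6 plates and 8.63% ± 2.39 at T9 (SD, n = 3 each). Plates of T3, T6 and T9 lay both below and above all T0 plates. By library set, the 7 plates with more reads outside features held 5.87 to 8.47% and the 5 with fewer held 8.32 to 10.9%. Within the first set the means ran from 8.28% at T0 to 5.92% at T3 (1 plate), 6.92% at T6 and 5.87% at T9 (1 plate). Within the second they were 9.00% at T3, 10.9% at T6 (1 plate) and 10.0% at T9.

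The mitochondrial rRNAs *mt-Rnr1* and *mt-Rnr2*, which are no members, parted the sets further, with 3.27 to 6.43% of UMIs on the first and 13.1 to 17.9% on the second. In the fit with the split as a covariate, all 13 mt members were higher on the plates with fewer reads outside features, by a median of 1.12 on the log2 scale, where 33.9% of all 13372 genes tested passed in either direction and 16.5% as higher. The largest of these differences were 2.60 for *mt-Atp8* and 2.17 for *mt-Nd4l*, and the smallest was 0.91 for *mt-Nd2*.

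**Figure D2:**
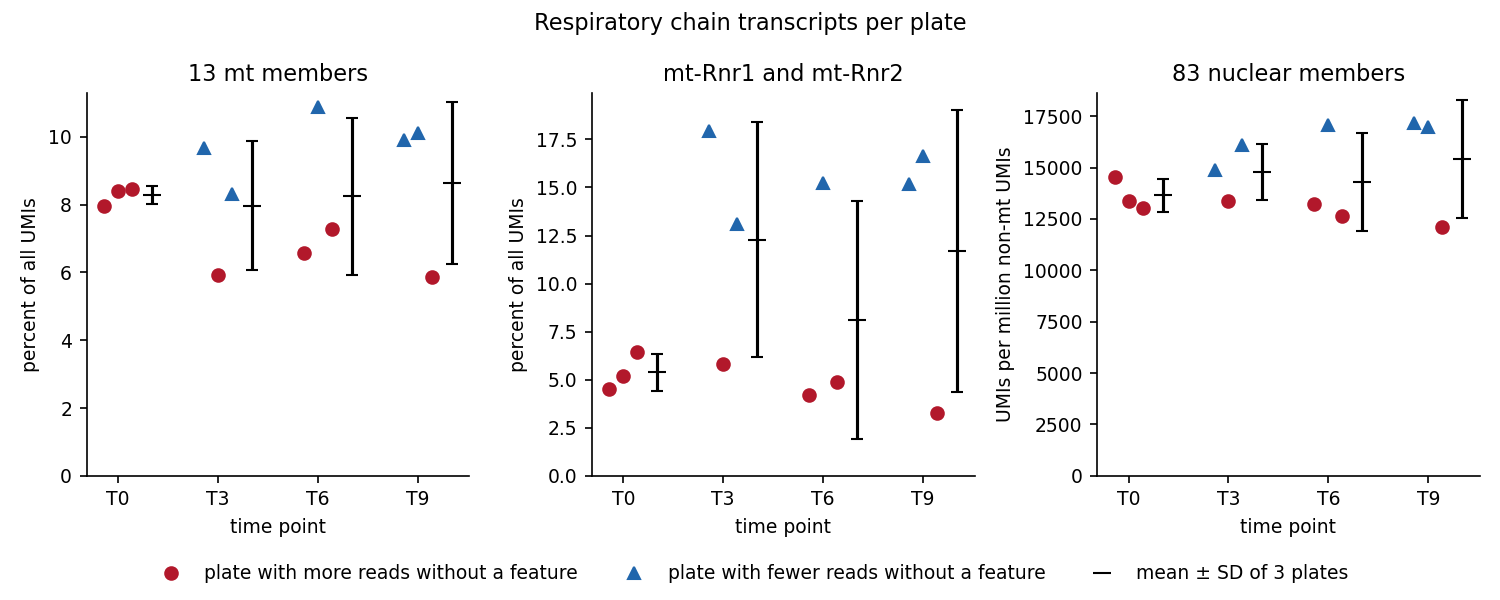
Each plate by time point (x axis), with the 13 mt members and the 2 mitochondrial rRNAs as percent of all UMIs, and the 83 nuclear members as CPM of non-mt UMIs (y axes), circles for plates with more and triangles for plates with fewer reads without a feature, and bars for mean ± SD of 3 plates. Triangles lie above the circles of their own time point in all 3 panels, and the T0 plates, all circles, hold 7.97 to 8.47% mt members.

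Among single mt members, none passed the test between T3 and T0 (edgeR quasi-likelihood test, adjusted p under 0.05, as throughout), where 33.2% of all genes did. An unadjusted p under 0.05 was reached by 2 of the 13, *mt-Co1* (log2 1.02 ± 0.43 SE, adjusted p = 0.0841) and *mt-Nd4l*, and DESeq2 called 1, *mt-Co1* (35.3% of all genes called). With the library split as a covariate 5 fell and 0 rose, against 38.2% of all genes called. *mt-Cytb*, the mitochondrially encoded subunit of complex III, took 1.42, 1.51 and 1.45% of UMIs at T0 and 1.21, 0.677 and 1.05% at T3, so that the groups did not overlap. Its log2 change was -0.30 ± 0.40 (SE) without and -1.15 with the covariate (adjusted p = 4.25e-06), and it was also -1.15 on the plates with more reads outside features alone. The other 4 that fell with the covariate were *mt-Atp6* (log2 -0.76), *mt-Nd1* (-0.70), *mt-Nd4* (-0.62) and *mt-Nd2* (-0.51), membrane subunits of complexes V and I. The same 4 had log2 changes between 0.05 and 0.17 without it.

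From T0 to T9, 4 mt members rose, where 45.2% of all genes passed and 23.6% as higher, and with the covariate 0 rose and 2 fell (47.8% called), *mt-Cytb* (log2 -0.79) and *mt-Nd1* (-0.45). The 4 were *mt-Atp8*, a small membrane subunit of complex V (log2 2.66 ± 0.80 SE, adjusted p = 0.0152), *mt-Nd4l* (1.90), *mt-Nd5* (1.37) and *mt-Co1* (1.17), the last 3 being core subunits of complexes I and IV. *mt-Atp8* shows how the split enters. It took 0.00979, 0.0104 and 0.0101% of UMIs at T0, and 0.0541, 0.0637 and 0.00600% at T9, the last being the T9 plate of the first set. Its log2 change was 0.33 with the covariate and -0.59 on the plates of the first set alone. Leaving out a single library changed the count of 4 to between 0 and 9. It was 0 without T0 plate 1, T0 plate 3 or T9 plate 2, 1 without T0 plate 2 or T9 plate 1, and 9 without T9 plate 3. The shares of all genes in these fits are not given here. None of the 13 passed between T6 and T3 (4.24% of all genes called, 2.61% as higher and 1.63% as lower), with 0 at an unadjusted p under 0.05 and 0 by DESeq2 (6.72%), or between T9 and T6 (1.62% called, 0.935% as higher and 0.688% as lower), with 0 and 0 (4.33%), whereas 6 rose from T3 to T6 with the covariate (11.1% called).

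On every plate *mt-Nd4* was the highest mt member (1.25 to 2.50% of UMIs) and *mt-Nd4l* the lowest (0.00438 to 0.0225%). UMIs of 1 well are limited to the 4096 combinations of 6 bases, so that molecules with the same UMI are counted once. *mt-Nd4* reached 1005 UMIs in a well, at which 12.8% of molecules would be lost from the count in this way. A correction for this changed no count of calls by more than 1.5 times. *mt-Nd6* is read from the strand opposite to the other 12 and overlaps *mt-Nd5* by 14 bases, and *mt-Atp8* and *mt-Atp6* share 43 bases on the same strand, so that reads in those bases cannot be assigned. Over wells, the median mt share was between 5.66% and 10.8% on a plate, the 10th percentile between 3.72 and 7.31% and the 90th between 7.87 and 14.9%. Spearman's rho between a well's mt share and its total UMIs was between -0.42 and -0.35 on the T0 plates and between -0.04 and 0.33 on the 9 later plates (381 to 384 wells each, which share a library, and whose totals contain the mt UMIs).

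The nuclear members were measured in non-mt CPM, that is as CPM of the UMIs outside the mitochondrial genome. Their summed level was 14547, 13354 and 13038 non-mt CPM at T0, 14899, 13373 and 16099 at T3, 13212, 17058 and 12652 on T6 plates, and 17181, 16971 and 12112 at T9. Each later time point had plates within or below the T0 range and above it. The library sets did not overlap here either, with 12112 to 14547 non-mt CPM on plates with more reads outside features and 14899 to 17181 on those with fewer. In the fit with the covariate 57 of 76 nuclear members were higher and 1 was lower on the plates of the second set (33.9% of all genes called, 17.4% as lower), by a median of 0.56 against -0.01 for all genes, and the 1 lower was *Uqcrc1* (log2 -0.35).

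By complex, the mean sum of complex I went from 5081 non-mt CPM at T0 to 6520 at T9, of complex III from 1401 to 1506, of complex IV from 2653 to 3414 and of complex V from 4512 to 3981. On the single T9 plate of the first library set the values were 5167 for complex I, 1201 for complex III, 2448 for complex IV and 3296 for complex V. On that plate complexes III, IV and V thus lay below every T0 plate (1343 to 1476, 2491 to 2865 and 4338 to 4791), while complex I lay within the T0 range (4797 to 5416). The symbol rule places *Ndufa4l2* in complex I, and without it the complex I means were 5076 at T0 and 5468 at T9, and that T9 plate, at 4330, lay below every T0 plate (4791 to 5413) there too.

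Single nuclear members moved both ways between T3 and T0, with 16 higher and 4 lower of 76 tested (33.2% of all genes called, 17.0% as higher and 16.2% as lower). The median log2 change of the 76 was 0.35, and that of all genes 0.01. With the library split as a covariate 8 were higher and 12 lower (38.2% of all genes called) and the median was -0.01. On the plates of the first set alone 10 were higher and 8 lower (33.2%), and between T9 and T0 14 and 14 (43.6%). From T0 to T9, 29 rose and 4 fell (45.2% called, 23.6% as higher and 21.6% as lower), with a median of 0.47, which is the same with *Cox6a2*, at 0 in T0, set at its bound. With the covariate it was 19 and 10 (47.8% called, median 0.10), and with library sizes from non-mt UMIs in place of TMM 13 and 8 (49.4% called). The 2 comparisons share the T0 plates. That last scaling lowers the median of all genes by 0.37 between T9 and T0, by 0.17 between T9 and T6 and by 0.11 between T3 and T0, so that log2 changes are relative to these shifts. Leaving out 1 plate gave 9 to 25 calls between T3 and T0. Of the 20 calls 9 were left without T0 plate 2 or T3 plate 3, 10 without T0 plate 3 and 11 without T3 plate 1. In these fits, in that order, 22.1%, 22.8%, 22.6% and 25.2% of all genes were called, against 33.2%, so calls fell for all genes too. Leaving out 1 plate between T9 and T0 gave 19 to 41 calls, with 19 without T0 plate 3, 20 without T9 plate 1, 21 without T9 plate 2 and 22 without T0 plate 2. The shares of all genes in these last fits are not given here.

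Calls kept by every alternative in which the gene was tested were few. Between T3 and T0 these were 4 of 16 higher members, *Ndufa4l2*, *Cox4i2*, *Cox6b2* and *Atp5j*, and 1 of 4 lower, *Ndufv1*. From T0 to T9 they were 11 of 29 higher and 1 of 4 lower, the last being *Ndufs1*, and 0 of the 4 mt members. The 11 were *Ndufa4l2*, *Cox6a2*, *Cox4i2*, *Cox6b2*, *Ndufv3*, *Atp5e*, *Ndufa6*, *Ndufb11*, *Ndufa3*, *Cox6a1* and *Ndufa13*, each tested in 17 alternatives but *Cox6a2*, which was tested in 15. *Atp5j*, *Ndufv3*, *Atp5e* and *Ndufa6* are described because of this, after their values were seen.

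**Figure D3:**
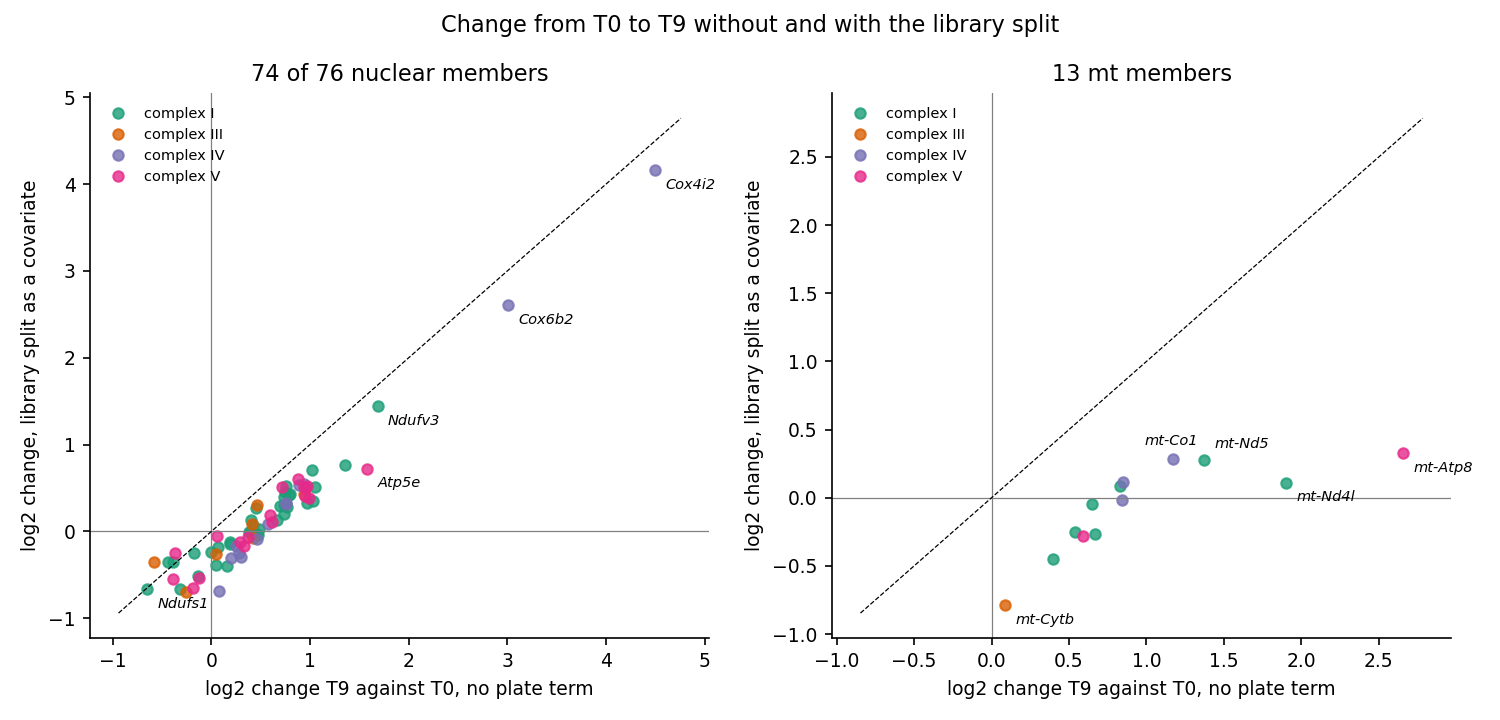
Log2 change from T0 to T9 in the fit without a plate term (x axis) and with the library split as a covariate (y axis), for 74 nuclear members, leaving out *Ndufa4l2* and *Cox6a2* whose changes exceed the axes, and for the 13 mt members, coloured by complex, with the dashed line where both fits are equal. All points but *Uqcrc1*, *Ndufa10*, *Ndufv1* and *Atp5l* lie below the line. The median falls from 0.47 to 0.10 for nuclear members and from 0.83 to -0.01 for mt members, while *Cox4i2*, *Cox6b2* and *Ndufv3* stay high.

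The paralogs of complex IV and the *Ndufa4* family held the nuclear members with the largest called changes. *Ndufa4l2*, a paralog of *Ndufa4* known to be induced at low oxygen and to lower oxygen use, had 3.20, 6.71 and 5.70 non-mt CPM at T0, 65.7, 87.8 and 51.6 at T3, 370, 363 and 400 on T6 plates, and 1288, 1030 and 837 at T9. No 2 time points overlapped, and each step passed the test: log2 3.82 ± 0.31 (SE, adjusted p = 7.87e-07) from T0 to T3, 2.56 ± 0.26 (adjusted p = 0.000245) from T3 to T6 and 1.66 ± 0.25 (adjusted p = 0.00513) from T6 to T9. Between T9 and T0 the log2 change was 8.04 ± 0.35 (adjusted p = 1.36e-09), between 7.58 and 8.29 under the alternatives, and its difference between the library sets was 0.12 with an adjusted p of 0.635. It was the only member called between T6 and T3 (4.24% of all genes called) and between T9 and T6 (1.62%).

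The rise of *Ndufa4l2* was spread over the wells. UMIs of it were found in 2.87 to 2.88% of wells on the T0 plates, 9.11 to 25.3% at T3, 54.4 to 68.7% on T6 plates and 85.9 to 93.5% at T9, where the median well held 4 to 7. Wells differ in depth, and after thinning each to 3000 UMIs, which left out 76, 113, 68 and 36 wells of T0, T3, T6 and T9, the shares were 0.612 to 1.01%, 7.74 to 15.7%, 38.3 to 45.9% and 70.5 to 79.7%. *Cox4i1*, thinned alike, was found in 55.1 to 63.2% of wells at T0 and 56.7 to 66.3% at T9. The 10% of wells with most UMIs held 30.7 to 37.0% of its UMIs at T9, against 25.8 to 29.2% for *Cox4i1*, the common subunit 4 of complex IV. *Ndufa4*, now counted as a subunit of complex IV although its name places it in complex I, had 174, 147 and 166 non-mt CPM at T0 and 193, 201 and 121 at T9, and did not pass (log2 0.47 ± 0.46 SE). At T3 and T6 it spread widely, with 47.7, 171 and 173 and then 92.2, 236 and 75.1 non-mt CPM. *Ndufa4l2* thus went from 3.16% ± 1.28 of the UMIs of both genes at T0 to 38.3% ± 17.9 at T3, 74.9% ± 12.6 on T6 plates and 86.0% ± 2.04 at T9 (SD, n = 3). Its last 32 bases overlap *Shmt2* on the opposite strand, and the strand setting of the count is not given in the sources used here, so reads in those bases cannot be assigned.

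*Cox4i2*, the paralog of *Cox4i1* known from lung and from low oxygen, had 6.89, 6.44 and 3.17 non-mt CPM at T0, 38.3, 40.2 and 47.6 at T3, 51.1, 66.5 and 55.0 on T6 plates, and 118, 96.3 and 78.2 at T9. All T3, T6 and T9 plates lay above all T0 plates, and the changes from T0 were log2 3.02 ± 0.30 at T3 (SE, adjusted p = 5.40e-06) and 4.50 ± 0.30 at T9 (adjusted p = 5.36e-08). *Cox4i1* had 388, 343 and 318 non-mt CPM at T0 and 461, 574 and 318 at T9, so that the groups overlapped. It passed between T9 and T0 (log2 0.75, adjusted p = 0.0207) but not with the covariate (0.32, adjusted p = 0.0894). *Cox4i2* made up 1.52% ± 0.470 of the UMIs of both at T0, 8.03% ± 0.655 at T3, 12.4% ± 1.15 on T6 plates and 18.2% ± 3.30 at T9.

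*Cox6b2*, best known as the testis form of subunit 6b, had 57.8, 64.2 and 63.4 non-mt CPM at T0, 145, 146 and 172 at T3, 229, 249 and 249 on T6 plates, and 541, 352 and 237 at T9. The T3 plates lay above T0 and the T6 plates above T3, while the lowest T9 plate lay among the T6 plates. Its log2 change was 1.44 ± 0.28 from T0 to T3 (SE, adjusted p = 0.00138) and 3.01 ± 0.29 from T0 to T9 (adjusted p = 1.94e-06), and it was 2.18 on the plates of the first set alone. *Cox6b1*, the common form, had 285 to 314 non-mt CPM at T0 and 222 to 440 at T9 and did not pass (log2 0.57, adjusted p = 0.0909). The share of *Cox6b2* in the UMIs of both was 17.1% ± 1.39 at T0, 31.4% ± 1.45 at T3, 39.7% ± 2.87 on T6 plates and 52.2% ± 2.71 at T9.

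The heart and muscle forms stayed near the limit of detection in the cells. *Cox6a2* had 73 UMIs in all, 0 at T0 and T3, and 2.54, 11.9 and 3.29 non-mt CPM at T9 (43 UMIs), at least 21.5-fold higher than the 3 UMIs that a count of 0 over the T0 plates allows, and at least 10.6-fold higher without T9 plate 2. It passed between T9 and T0 (adjusted p = 0.00357), and its counterpart *Cox6a1* rose by log2 0.89 ± 0.22 (SE, adjusted p = 0.00441), with 411 to 464 non-mt CPM at T0 and 479 to 691 at T9. *Cox8b* had 1 UMI and *Cox7a1* 79, too few to be tested, against 5001 for *Cox8a* and 5026 for *Cox7a2*. *Cox8a* had 116 to 149 non-mt CPM at T0 and 144 to 237 at T9 and rose (log2 0.94, adjusted p = 0.00657), *Cox7a2* did not pass (0.25, adjusted p = 0.424), and *Cox7a2l*, which helps complexes III and IV to associate, was higher at T3 (0.74, adjusted p = 0.0333) and at T9 (0.75, adjusted p = 0.0230) but not with the covariate (adjusted p = 0.0973 and 0.0837). Markers of striated muscle, 8 of 10 of which were detected, summed to 28.3 to 70.6 CPM at T0 and 11.3 to 59.5 CPM at T9.

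**Figure D4:**
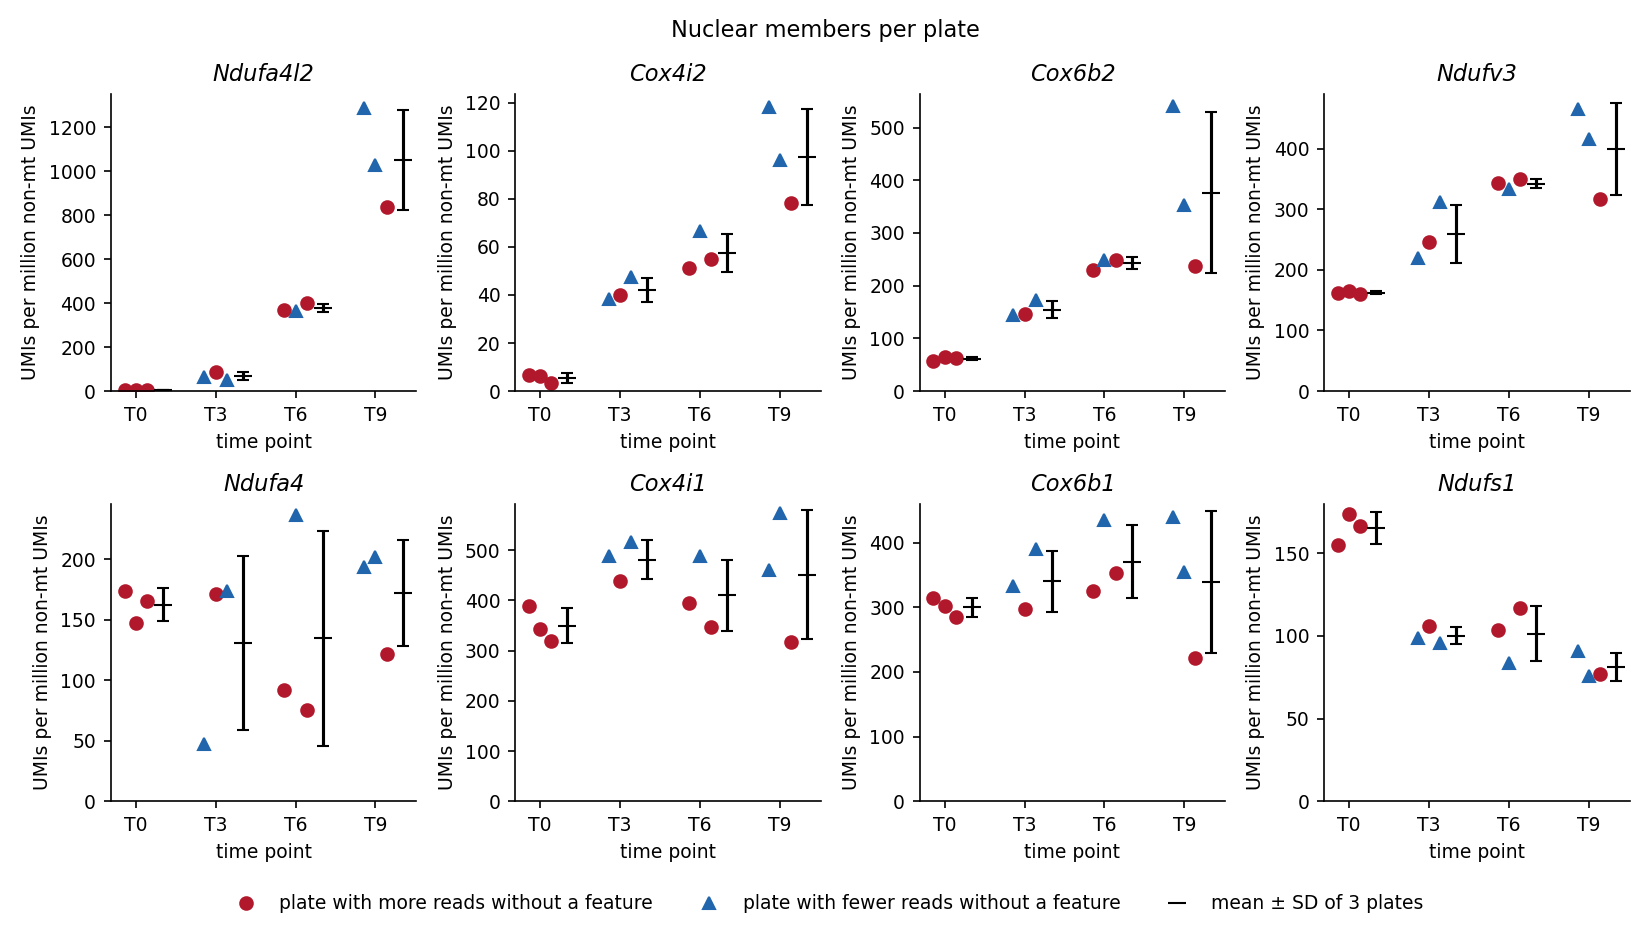
Selected nuclear members in CPM of non-mt UMIs (y axes from 0) by time point (x axis), each point a plate, circles and triangles for plates with more and fewer reads without a feature, bars for mean ± SD of 3 plates. *Ndufa4l2* climbs at each step to 837 to 1288 at T9, *Cox4i2*, *Cox6b2* and *Ndufv3* lie above their T0 plates on every later plate, *Ndufs1* below, and *Ndufa4*, *Cox4i1* and *Cox6b1* at T9 overlap T0.

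In complex I, *Ndufs1* and *Ndufv1* of the arm that takes up NADH and the accessory subunit *Ndufa10* fell, and other members rose. *Ndufs1*, the largest subunit and bearer of iron-sulfur clusters, had 155, 174 and 167 non-mt CPM at T0, 99.0, 106 and 95.5 at T3, 103, 83.7 and 117 on T6 plates, and 90.8, 75.6 and 76.8 at T9. Every later plate lay below every T0 plate, and its log2 change was -0.61 ± 0.17 at T3 (SE, adjusted p = 0.0120) and -0.65 ± 0.17 at T9 (adjusted p = 0.00569), where it was -0.66 with the covariate. *Ndufv1*, the flavin-bearing subunit that binds NADH, had 125 to 133 non-mt CPM at T0, 66.5 to 89.5 at T3 and 71.6 to 82.7 at T9 (log2 -0.63, adjusted p = 0.00624, and -0.39, adjusted p = 0.0492), the latter not passing with the covariate (adjusted p = 0.0543). *Ndufa10*, an accessory subunit of the membrane arm, was the third of complex I to fall at both times (log2 -0.46 and -0.45, adjusted p = 0.0359 and 0.0299). *Ndufs7*, a core subunit of the arm that hands electrons to ubiquinone, did not pass (at T9 log2 0.45 ± 0.21 SE).

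*Ndufv3*, an accessory subunit beside *Ndufv1*, had 161, 165 and 161 non-mt CPM at T0, 220, 246 and 312 at T3, 343, 334 and 350 on T6 plates, and 466, 416 and 317 at T9. All T0 plates lay below all others, and it rose by log2 0.79 ± 0.21 to T3 (SE, adjusted p = 0.00976) and 1.68 ± 0.21 to T9 (adjusted p = 2.08e-05), where it was 1.44 with the covariate. *Ndufa6*, an accessory subunit of the LYR family, had 158 to 204 non-mt CPM at T0, 316 to 402 at T3, 171 to 358 on T6 plates and 246 to 424 at T9 (log2 1.36 at T9, adjusted p = 0.00250). *Ndufb11*, *Ndufa3* and *Ndufa13*, accessory subunits of the membrane arm or its junction, rose by log2 1.05, 1.02 and 0.75 between T0 and T9 (adjusted p = 0.00942, 0.00388 and 0.00333). In all, complex I had 14 members higher and 3 lower of 37 tested at T9 (45.9%, near the 45.2% of all genes called), and 9 and 6 with the covariate (40.5%, against 47.8%).

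In complex III, *Uqcrc1*, the core 1 protein, had 139 to 170 non-mt CPM at T0, 78.7 to 107 at T3, 55.3 to 97.6 on T6 plates and 68.3 to 92.5 at T9, with no overlap between T0 and any later time point. It fell by log2 0.70 at T3 (adjusted p = 0.0116) and 0.58 at T9 (adjusted p = 0.0209), the latter not passing with the covariate (adjusted p = 0.0639). *Uqcrh*, the acidic hinge protein, rose to T3 and T9 (log2 0.72 and 0.95, adjusted p = 0.0384 and 0.00647), the former not passing with the covariate (adjusted p = 0.0988). The Rieske iron-sulfur subunit *Uqcrfs1* had 292 to 317 non-mt CPM at T0 and 209 to 269 at T9, so that the groups did not overlap, but it did not pass (log2 0.05 with TMM and -0.33 with non-mt library sizes). Of 8 members tested, 2 were higher and 1 lower at both times, that is 37.5%, where 33.2% of all genes were called at T3 and 45.2% at T9. With the covariate it was 0 and 2 at T3 (38.2% of all genes called) and 2 and 1 at T9 (47.8%). The members called at T9 differed between the fits. *Uqcrc1* was called only without the covariate, and *Uqcr11*, with means of 34.7 non-mt CPM at T0 and 22.3 at T9, only with it.

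In complex IV 7 of 14 members tested were higher at T9 and 0 lower (23.6% of all genes called as higher, 45.2% in all), and 5 and 0 with the covariate, which is 35.7%, where 47.8% of all genes were called. The 7 are *Cox4i2*, *Cox6a2*, *Cox6b2*, *Cox4i1*, *Cox6a1*, *Cox7a2l* and *Cox8a*, all given above. *Cox5b* had 135 to 187 non-mt CPM at T0 and 103 to 171 at T9 and did not pass (log2 0.28 ± 0.27 SE). *Cox5a* had only 251 UMIs in all plates against 5439 for *Cox5b*, and did not pass (0.07 ± 0.43 SE).

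In complex V *Atp5e* rose with and without the covariate, whereas *Atp5b* passed as lower with the covariate alone or with non-mt library sizes. The beta subunit *Atp5b* had 728 to 891 non-mt CPM at T0, 560 to 592 at T3, 390 to 491 on T6 plates and 432 to 525 at T9, with every later plate below every T0 plate. Its log2 change between T9 and T0 was -0.39 ± 0.17 (SE, adjusted p = 0.0834), which did not pass, whereas with the covariate it was -0.55 (adjusted p = 0.00258) and with non-mt library sizes -0.76 (adjusted p = 0.00107). The alpha subunit *Atp5a1* had 773 to 871 non-mt CPM at T0 and 609 to 696 at T9 and passed in none of these fits (adjusted p = 0.791, 0.741 and 0.0652). *Atp5e*, the small epsilon subunit of the central stalk, had 121, 110 and 104 non-mt CPM at T0, 225, 147 and 273 at T3, 155, 331 and 147 on T6 plates, and 307, 306 and 148 at T9. It rose by log2 1.58 ± 0.39 to T9 (SE, adjusted p = 0.00429) and by 0.72 with the covariate (adjusted p = 0.000474), and differed by 1.14 between the library sets, more than any other nuclear member. *Atp5j*, coupling factor 6 of the peripheral stalk, rose to T3 (log2 1.31, adjusted p = 0.00957), with 34.1 to 50.9 non-mt CPM at T0 and 81.2 to 109 at T3. Of 17 members tested 6 were higher and 0 lower at T9, and 3 and 3 with the covariate, in both fits 35.3%, below the 45.2% and 47.8% of all genes called.

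Groups overlapped for most members. Between T3 and T0, 26 of 76 nuclear members were higher and 10 lower without overlap (52.0% of all genes, 21.4% as higher and 30.5% as lower), and between T9 and T0 18 were higher and 14 lower (61.7%, 19.6% and 42.1%). Among the mt members it was 1 higher and 2 lower of 13 between T3 and T0, and 0 higher and 1 lower between T9 and T0, *mt-Cytb*. The 7 nuclear members of the single-cell table that were not tested, *Cox8b*, *Cox7a1*, *Cox7b2*, *Cox6c2*, *Ndufa11b*, *Ndufb4c* and *Ndufs6b*, held 1 to 79 UMIs each.

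Other genes of the organelle were counted in the same fits. The mitochondrial ribosome had 1 member higher and 16 lower of 75 tested between T3 and T0 (33.2% of all genes called). Between T9 and T0 it had 7 and 14 (45.2%), and the medians were -0.24 and -0.13. With the covariate it had 0 and 36 at T3 (48.0%, against 38.2% of all genes), and 4 and 36 at T9 (53.3%, against 47.8%). *Mrps27* (log2 -1.53 at T3), *Mrpl3* (-1.15 and -1.35 at T3 and T9) and *Mrps22* (-1.31 at T9) fell most. Of 10 genes of mitochondrial transcription and replication 0 were higher and 3 lower at T3, and 1 and 3 at T9, among them the RNA polymerase *Polrmt* (-1.42 and -1.12), the helicase *Twnk* (-1.10 at T3) and *Lrpprc*, which stabilises mitochondrial mRNA (-1.36 at T9). Electron carriers and quinone supply had 0 higher and 2 lower of 7 at both times, with cytochrome c, *Cycs*, at -0.70 and -1.46 and the quinone enzymes *Coq5* (-0.62 at T3) and *Coq7* (-1.14 at T9).

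In the lists that follow, counts are read against 33.2% of all genes called at T3 and 45.2% at T9. Assembly factors had 0 higher and 4 lower of 21 at T3 (19.0%), and 4 and 3 at T9 (33.3%), led by *Cox10*, which makes the heme of complex IV (-2.04 and -1.72), *Ndufaf4* (-1.33 at T3) and *Cox14* (0.98 at T9). *Cox10* was also the only gene of these lists called between T6 and T3 (log2 0.98, adjusted p = 0.0484), and none was called between T9 and T6. In the citric acid cycle 0 were higher and 2 lower of 12 at T3, *Cs* (-0.64) and *Ogdh* (-0.64), and 1 and 1 at T9, *Fh1* (0.49) and *Dlst* (-0.79), but with non-mt library sizes 0 and 8 at T9 (49.4% of all genes called). None of the 4 genes of complex II was called at either time, and 1 was lower with the covariate at each (38.2% and 47.8% of all genes called). Of 5 regulators tested *Pprc1* was lower at T3 (-0.99) and *Pprc1* and *Nrf1* at T9 (both -0.79).

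In Achilles tendon no respiratory chain gene passed the test between Scx_KO and Scx_Wt. *Scx* itself, which checks the labels, had 103 and 81.3 CPM in Scx_Wt and 23.1 and 25.1 CPM in Scx_KO (log2 -1.88 ± 0.17 SE, adjusted p = 0.000429), and *Tnmd* fell by 2.30. Of the members 0 of 78 nuclear and 0 of 11 mt were called (3.84% of all 14602 genes, 1.77% as higher and 2.07% as lower), 9 nuclear and 0 mt had an unadjusted p under 0.05, and DESeq2 called 1 nuclear, *Ndufs4*, and 0 mt (5.63% of all genes). The mt members took 2.60 and 3.54% of counts in Scx_Wt and 2.93 and 2.75% in Scx_KO, so that the knockouts lay between the wild types. The 5 mt members with shared windows held 1 to 96 counts per sample. These shares therefore rest on the other 8 and are not comparable with those of the cells. The nuclear members summed to 17353 and 19589 non-mt CPM of read counts in Scx_Wt and to 22505 and 20098 in Scx_KO, with both knockouts above both wild types.

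The nuclear members differed little, and mostly in 1 direction. Of 78 members 72 had a positive log2 change (7243 of 14602 genes did), with a median of 0.24 against -0.00 for all genes. The median was 0.12 without Scx_Wt replicate 1 and 0.38 without Scx_Wt replicate 2. Without overlap 43 were higher and 1 lower (48.7% of all genes, 21.1% as higher and 27.6% as lower), the 1 being *Ndufa4l2*. Genes of striated muscle summed to 39641 and 65640 CPM in Scx_Wt and to 82599 and 86199 CPM in Scx_KO, with all 10 detected and none called higher, and *Myh7*, the slow myosin, lower (log2 -5.86, adjusted p = 0.00271). Genes of adipocytes, 6 of 7 detected with *Ucp1* at 0, summed to 2748 and 1355 CPM in Scx_Wt and to 827 and 460 CPM in Scx_KO, and the 8 tenocyte genes to 164794 and 151689 against 71856 and 82885 CPM. Their part in the nuclear values was not tested, and in a bulk sample fewer cells of a type and less RNA per cell cannot be told apart.

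*Ndufa4l2* had 212 and 209 non-mt CPM in Scx_Wt and 154 and 129 in Scx_KO. The groups did not overlap, and its log2 change was -0.53 ± 0.15 (SE) with an adjusted p of 0.101, which did not pass. *Ndufs4*, an accessory subunit near the NADH site, had 124 and 125 against 179 and 176 non-mt CPM (0.56 ± 0.15 SE, adjusted p = 0.0700). *Atp5b* had 2070 and 2448 against 2660 and 2529 non-mt CPM and *Atp5a1* 1301 and 1609 against 1680 and 1727, with log2 changes of 0.24 and 0.27. *Ndufs1* (0.03), *Ndufs7* (0.23), *Ndufv1* (0.37), *Uqcrc1* (0.32), *Uqcrfs1* (0.12), *Cox5a* (0.04) and *Cox5b* (0.24) did not pass either.

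Paralogs in tendon are given as shares of counts, which are not corrected for transcript length. They are shares of the whole sample, in which genes of striated muscle summed to 39641 to 86199 CPM. What muscle and tendon cells each contributed was not tested. *Cox6a2* was 64.7 and 71.3% of the counts of *Cox6a1* and *Cox6a2* in Scx_Wt and 68.8 and 72.9% in Scx_KO, *Cox8b* was 63.4 and 66.6% against 64.3 and 66.5% of *Cox8a* and *Cox8b*, and *Cox7a1* 34.8 and 43.2% against 43.9 and 43.6% of *Cox7a1* and *Cox7a2*. *Cox4i2* and *Cox6b2* were 1.07 to 1.38% and 0.926 to 1.13% of their pairs in Scx_Wt, and 0.788 to 0.981% and 0.537 to 1.03% in Scx_KO. *Ndufa4l2* was 42.2 and 40.6% of the pair with *Ndufa4* in Scx_Wt and 30.6 and 26.3% in Scx_KO, without overlap.

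In the other lists no gene was called in tendon (3.84% of all genes called), with medians of 0.22 for the mitochondrial ribosome, 0.21 for the citric acid cycle, 0.19 for complex II, 0.12 for electron carriers, 0.08 for assembly factors, 0.02 for regulators and 0.01 for mitochondrial transcription. At an unadjusted p under 0.05 there were 13 of 77 genes of the ribosome, 1 of 23 assembly factors and 1 of 7 electron carriers.

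**Figure D5:**
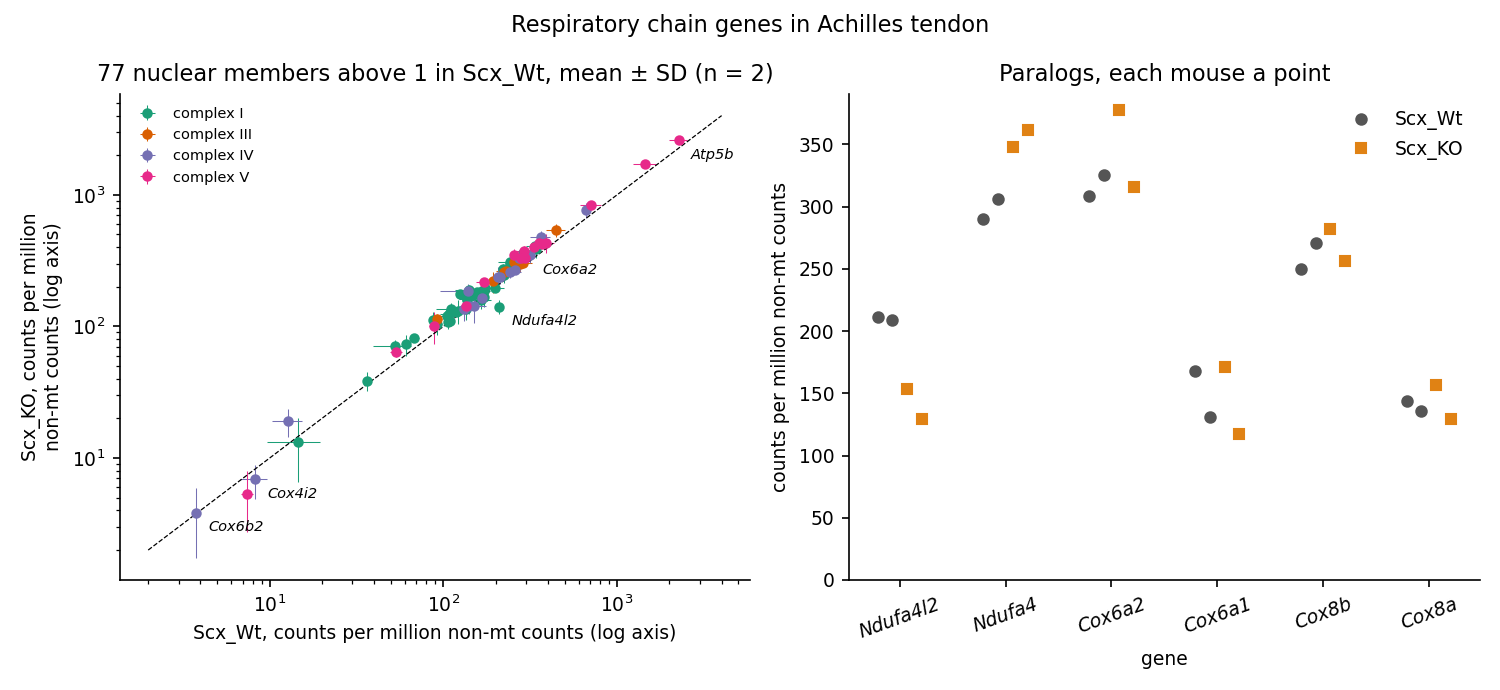
Left, 77 nuclear members above 1 non-mt CPM in Scx_Wt, mean ± SD of 2 mice in Scx_Wt (x axis) and Scx_KO (y axis), both in CPM of non-mt counts on log axes, with the dashed line of equality, and right, 6 paralogs with each mouse a point (y axis from 0). Most points lie above the line, with a median log2 change of 0.24, and *Ndufa4l2* lies below it, with 129 and 154 in Scx_KO against 209 and 212 in Scx_Wt.

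Counts under other settings are read against these shares of all genes called. Without a filter on low counts they were 16.4% between T3 and T0, 3.41% between T6 and T3, 2.31% between T9 and T6, 21.9% between T9 and T0 and 6.01% in tendon. With the replicate block they were 42.3% between T9 and T0 and 7.59% in tendon. With only the 6 plates of T3 and T0 it was 41.8%. Between T6 and T3 it was 4.25% with non-mt library sizes, 3.67% on the second library set and 5.43% on the first, and between T9 and T6 6.08% with the covariate and 2.19% on the first set.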

How the data were processed

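The authors sorted single cells into plates, made CEL-Seq2 libraries, aligned reads to GRCm38 with HISAT2 2.2.1 and obtained UMI counts with featureCounts and UMI-tools 1.0.1. The deposited single-cell table holds these counts per gene and well without normalization. For the tendons the authors used HISAT2 2.0.4 and featureCounts 1.5.0, and the deposited values are read counts per gene. The annotation release and the strand setting are not given in the sources used here.

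Ensembl IDs were given symbols (29528 of 29629 IDs in the single-cell table, 47224 of 47729 in the tendon table), and positions come from GENCODE M21. Of the single-cell UMIs 0.0642% belong to 3 entries outside Ensembl and were left out. Wells with fewer than 200 genes were left out (14 of 4608). UMIs were summed per plate, genes were kept by filterByExpr, and edgeR 4.0.16 in R 4.3.3 was used (TMM, quasi-likelihood test, Benjamini-Hochberg over all genes, threshold 0.05), with all 12 plates in 1 fit and the 4 tendons in another. Summed levels carry no test. Of the mt members, 13 were tested in the cells and 11 in tendon, and of the nuclear members 76 and 78. The step was also run on simulated counts, and the outcome is not given here. Those counts were drawn without the library split, so the run cannot test the effect of that split. Members and lists were chosen with earlier results of these data known. Members named are the 13 mt members, the paralog sets, the core subunits and, for each comparison, the 3 nuclear members with the largest called change in each direction whose groups do not overlap, and in other lists the 2 largest changes called. A gene that this rule names is not reported here. Others are named as chosen after their values were seen: the calls kept under every alternative, those that complete a count of a complex, and genes with the largest difference between library sets.

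Alternatives were DESeq2 1.42.0, RLE size factors, library sizes from non-mt UMIs, mt genes removed, no filter, a term for the library split, a fit of the 6 plates in question, at least 1000 genes per well (4365 wells), a correction for UMI collisions, means over wells, the replicate number as a block and leaving out each replicate. Fits on 1 library set alone, the motifs searched and the thinning of wells were added after seeing the data. Python 3.11.15 with pandas 2.3.3, numpy 2.4.6 and scipy 1.17.1 was used, and figures were drawn with matplotlib 3.10.9. Limits for counts of 0 cover counting error only.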

Additional observations from a re-analysis of the deposited data

How the results depend on the processing

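Depth limits the small members, and the library split, absent from T0, limits every comparison with T0. Of 171 changes of named members tested, 12 had the opposite sign under an alternative while passing the test in that fit or in the report's. Whether called or not, 71 kept their sign under every alternative and 100 did not, and with the covariate 11 of the 13 mt members changed sign between T3 and T0 and 7 between T9 and T0. Where a value below differs from that of the report, the cause was not tested. Fits on 1 library set were chosen after seeing the data, and where a set holds 1 plate of a time point (T3 and T9 in the first, T6 in the second) that plate is assumed to vary like the others.

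Members called among the mt members between T3 and T0 were 1 with DESeq2, 5 with the covariate, 4 without a filter, 4 on the first library set alone and 5 with only the 6 plates compared, against 0. Between T6 and T3 they were 6 with the covariate, 1 on the second set and 3 on the first, against 0, and between T9 and T6 1 without a filter and 1 on the first set, against 0. From T0 to T9 they were 1 with non-mt library sizes, 2 with the covariate, 8 without a filter and 1 with the replicate block, against 4. Among the nuclear members T3 against T0 gave 37 with only the 6 plates, against 20. T6 against T3 gave 3 with DESeq2, 2 with non-mt library sizes, 10 with the covariate, 3 without a filter, 2 on the second set and 9 on the first, against 1. T9 against T6 gave 3 with DESeq2, 2 with the covariate and 3 without a filter, against 1. T9 against T0 gave 21 with non-mt library sizes, against 33, and the tendons gave 1 with DESeq2 (*Ndufs4*), and 2 without a filter and 2 with the replicate block (*Ndufs4* higher and *Ndufa4l2* lower both times), against 0. The mean mt share of T0 over wells was 9.07%.

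Leaving out each replicate in turn gave 0 to 2 mt and 9 to 25 nuclear calls between T3 and T0, 0 to 0 and 1 to 5 between T6 and T3, 0 to 0 and 1 to 4 between T9 and T6, 0 to 9 and 19 to 41 between T9 and T0, and 0 to 0 and 0 to 1 in tendon (1 without Scx_Wt replicate 2, *Cox7a1*). Without T6 plate 2, 4 nuclear members were lower than at T3. Over the fits with 1 plate left out, 22.1 to 31.5% of all genes were called between T3 and T0. Between T6 and T3 it was 2.14 to 6.32%, and for the other comparisons the shares are not given here. The higher counts came without T3 plate 2 for the mt members between T3 and T0 (2), and without T6 plate 2 (3) and T9 plate 3 (4) for the nuclear members between T9 and T6. Mean mt shares ranged over 8.18 to 8.43% at T0, 7.12 to 9.00% at T3, 6.92 to 9.08% at T6 and 7.89 to 10.0% at T9, and nuclear sums over 13196 to 13950, 14136 to 15499, 12932 to 15135 and 14541 to 17076 non-mt CPM.

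Turned directions of changes that passed in either fit were these. Between T3 and T0, with the covariate, *mt-Atp6* -0.76, *mt-Nd1* -0.70, *mt-Nd2* -0.51 and *mt-Nd4* -0.62, and on the first set *mt-Atp6* -0.67, *mt-Nd1* -0.68 and *mt-Nd4* -0.67. Between T6 and T3, *mt-Atp8* was 0.86 with the covariate and 0.78 on the first set, and *Ndufa4* -0.91 on the first set. Between T9 and T0, with the covariate, *mt-Cytb* was -0.79 and *mt-Nd1* -0.45, and on the first set *mt-Atp6* -0.45, *mt-Atp8* -0.59, *mt-Cytb* -0.88, *mt-Nd1* -0.56 and *mt-Nd4l* -0.18, and between T9 and T6 *mt-Atp8* was -1.14 there.

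Plates of the same number deviated from their group means with correlations from -0.61 to 0.54. No pair of time points was above 0.1 in all 3, and the tendon pair was at 0.07. Whether the numbers pair samples cannot be decided from this. From T3 to T6 and T6 to T9 the correlation was positive where plates shared a library set and negative where they did not. In tendon the deviations within a genotype mirror each other, so the value repeats by construction. The replicate block raised the share of all genes called in tendon to 7.59% from 3.84%. It lowered that share between T9 and T0 to 42.3% from 45.2%. With the replicate block 20 nuclear members were called between T3 and T0, 1 between T6 and T3, 1 between T9 and T6 and 31 between T9 and T0.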
